A study of Mus musculus with 19 samples.

Results

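The 40 genes described here mark the endothelium, the cell layer that lines blood and lymph vessels, and were chosen by name: each listed symbol was matched to its Entrez Gene ID in the count tables. All 40 were found among the 36528 gene IDs measured in each library. RNA with a poly(A) tail was sequenced from 10 libraries of mouse lung tissue and 9 libraries of alveolar type II (AT2) cells, the surfactant-making epithelial cells of the alveolus. Control mice (4 AT2 and 5 lung libraries) carried SpcCreERT2 and RosatdTomato: a tamoxifen-activated Cre recombinase driven by the surfactant protein C promoter, which is active in AT2 cells, and a red reporter that Cre switches on. Mice labelled Etv5KO (5 AT2 and 5 lung libraries) carried the same transgenes with 1 knockout allele and 1 loxP-flanked allele of Etv5, an ETS family transcription factor whose target genes the series set out to find. Both genotypes received tamoxifen at 100 mg/kg over 5 days and were left for a further 5 days, so the controls had Cre and tamoxifen too. Ages were not given in the sources used here. The sort took cells positive for EpCAM and tdTomato and discarded those bearing CD45 or CD31, and CD31 is the product of Pecam1, 1 of the 40 genes. The labels do not state which AT2 and lung libraries came from 1 mouse.

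Endothelial cells hold together through junctional proteins such as VE-cadherin (Cdh5) and CD31 (Pecam1), and their identity depends on ETS factors such as ERG together with SOX factors. In the lung they form a dense capillary bed wrapped around the alveoli, made of general capillary cells and of large, thin aerocytes specialised for gas exchange, besides arteries, veins and lymphatics. The genes fall into 5 roles: 13 encode junction, adhesion and surface proteins, 5 transcription factors, 11 receptors, ligands and their signalling proteins, 3 receptors or modulators of BMP and TGF-beta signals, and 8 proteins of blood clotting, vascular tone and transport.

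Total counts per library lay between 14971793 and 28671262. The 40 genes together took 1.48% to 1.92% of counts in control lung and 1.23% to 1.80% in lung labelled Etv5KO, against 0.0459% to 0.0518% in control AT2 cells and 0.0433% to 0.0585% in AT2 cells labelled Etv5KO. The tissue labels held: all 7 AT2 marker genes were higher in AT2 cells than in lung in both genotypes. Etv5 did not fall with the Etv5KO label (667 ± 36.1 CPM in control AT2 cells, SD, n = 4, and 713 ± 58.3 in those labelled Etv5KO, n = 5), so it does not check those labels. CPM is the read count brought to a common library size, here with TMM scaling over all 19 libraries. Libraries are numbered within their group, and the number pairs nothing. AT2_control 2 stood apart from the other AT2 libraries on the second principal component (36.3, where the others lay between -22.8 and 13.5) and had the lowest AT2 level for 17 of the 40 genes. The library lung_Etv5KO 2 had the lowest lung level for 29 of the 40.

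Promoter sequences were available for 19 of the 40 genes as 26 windows of 300 bases, from 250 bases before to 50 bases after a start site (RefSeq, GRCm38.p6). They were searched on both strands for ETS-type motifs (CAGGAAG and CCGGAAG), for AACAGGAA, which can overlap CAGGAAG and resembles the combined FOX and ETS motif of endothelial enhancers, and for the SOX-type motif ACAAAG. The letters CAGGAAG were in 7 of the 26 windows (Apln, Calcrl, Egfl7, Emcn, Erg and Robo4) and in 13.3% of all 32851 windows. CCGGAAG was in 1 window (Car4; 8.86% of all windows), AACAGGAA in 3 (Calcrl, Egfl7 and Emcn; 2.65%) and ACAAAG in 6 (Apln, Bmx, Egfl7, Eng, Gja5 and Prox1; 18.7%). A match describes letters in the window and is not a measured binding site. The windows below are shown because 3 of them hold AACAGGAA (Calcrl and Emcn, which kept 1.74% and 1.86% of their control lung level in AT2 cells, and Egfl7, which kept 6.75%), and the fourth belongs to Car4, whose level changed in AT2 cells. Capitals mark matches to the ETS-type motifs or to AACAGGAA on either strand.
Calcrl, chr2:84425217-84425516, minus strand: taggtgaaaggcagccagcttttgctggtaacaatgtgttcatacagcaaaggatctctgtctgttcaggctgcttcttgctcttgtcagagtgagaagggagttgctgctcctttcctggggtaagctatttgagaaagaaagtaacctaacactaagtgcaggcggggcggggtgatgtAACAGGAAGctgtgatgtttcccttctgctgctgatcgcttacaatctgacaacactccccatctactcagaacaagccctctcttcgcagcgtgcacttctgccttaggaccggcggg
Emcn, chr3:137340828-137341127, plus strand: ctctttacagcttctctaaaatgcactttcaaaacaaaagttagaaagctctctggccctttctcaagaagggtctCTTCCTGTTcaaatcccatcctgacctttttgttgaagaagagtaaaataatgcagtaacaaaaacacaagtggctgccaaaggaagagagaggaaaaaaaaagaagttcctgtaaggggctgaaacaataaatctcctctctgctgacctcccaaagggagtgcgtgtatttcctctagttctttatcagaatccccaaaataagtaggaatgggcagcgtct
Egfl7, chr2:26580833-26581132, plus strand, 1 of its 3 windows: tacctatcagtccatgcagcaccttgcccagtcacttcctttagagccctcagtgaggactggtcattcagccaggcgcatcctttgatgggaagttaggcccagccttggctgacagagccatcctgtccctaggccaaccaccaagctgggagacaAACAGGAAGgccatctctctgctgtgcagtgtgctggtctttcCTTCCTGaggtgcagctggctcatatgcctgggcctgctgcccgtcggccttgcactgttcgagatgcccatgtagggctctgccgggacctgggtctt
Car4, chr11:84957504-84957803, plus strand: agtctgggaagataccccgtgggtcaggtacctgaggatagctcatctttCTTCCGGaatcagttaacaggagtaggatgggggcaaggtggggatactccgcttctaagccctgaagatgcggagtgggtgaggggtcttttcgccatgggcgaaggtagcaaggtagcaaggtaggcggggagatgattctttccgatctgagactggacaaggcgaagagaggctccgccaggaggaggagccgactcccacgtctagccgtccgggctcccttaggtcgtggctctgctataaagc
In Calcrl the capitals start at position -69 from the start site and read as AACAGGAAG. In Egfl7 the same letters start at -92, and a second CAGGAAG on the opposite strand starts at -49. In Emcn the match lies on the opposite strand, with its first letters at -174. The Car4 match to CCGGAAG, also on the opposite strand, starts at -200.

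In control lung the most abundant of the 40 genes per length were Tspan7, a tetraspanin, Plvap, which forms the diaphragms of capillary pores, and Ramp2, which escorts the adrenomedullin receptor to the membrane. By the deposited RPKM, which divides by gene length, they stood at 356 ± 88.6 (Tspan7), 334 ± 91.8 (Plvap) and 326 ± 72.4 (Ramp2, all SD, n = 5). Cdh5 followed at 306 ± 17.5 RPKM and Calcrl, the receptor that Ramp2 escorts, at 275 ± 40.8. Neighbours in this order differed by less than the larger of their SDs, so the order of these 5 is not resolved. The least abundant were Prox1, the transcription factor of lymphatic vessels, at 0.411 ± 0.100 RPKM, Bmx, a tyrosine kinase of arterial endothelium, at 4.53 ± 0.528, and Nos3, the endothelial nitric oxide synthase, at 7.66 ± 1.84.

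The order in control AT2 cells was different at its top. Esam, an adhesion molecule of endothelial junctions, led at 64.6 ± 4.40 RPKM (SD, n = 4) and was rank 1 of 40 there, against rank 19 in control lung. Tspan7 followed at 11.6 ± 1.18 RPKM, then Egfl7, a secreted matrix protein of vessels, at 10.1 ± 1.15 and Nr2f2 at 6.97 ± 0.920. Nr2f2 encodes COUP-TFII, a transcription factor of venous identity that other cell types also make, and moved from rank 37 in lung to rank 4. Esam alone made up 34.7% of the summed CPM of the 40 genes in control AT2 cells and 1.70% in control lung. At the low end, Bmx had 3 to 7 counts and Prox1 2 to 19 counts in each control AT2 library, so their AT2 levels rest on very few reads.

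Every one of the 40 genes was lower in sorted AT2 cells than in lung, by a median of 48.4-fold in controls and 37.1-fold in mice labelled Etv5KO. In control mice 40 of 40 were lower by edgeR's quasi-likelihood test (adjusted p at most 0.000867; 4 against 5 libraries), where 38.9% of all 17118 genes tested were lower. The groups did not overlap for any of the 40, where 35.9% of all genes were lower without overlap. In mice labelled Etv5KO 40 of 40 were lower again (adjusted p at most 1.7e-05; 5 against 5), where 39.7% of all genes were lower, and the 40 again did not overlap (35.9% of all genes). Bmx and Prox1 failed the filter on low counts among AT2 libraries and entered both fits through their lung level. Their being lower is a description and not a test result. The median log2 difference was -5.59 in controls and -5.18 in Etv5KO, beside -0.01 and 0.01 over all genes. Scaling by library size alone moved the median over all genes to -0.42 in controls and -0.36 in Etv5KO and that of the 40 genes to -6.00 and -5.55. The sort discarded cells bearing CD31, and the source of the reads of these genes that remained in AT2 cells was not tested. In bulk libraries, fewer endothelial cells and less RNA per endothelial cell cannot be told apart.

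Pecam1, the gene of the CD31 gate, and Cdh5 set the scale of this difference. Pecam1 (Entrez Gene 18613) stood at 24.1, 16.6, 21.6 and 18.2 CPM in control AT2 cells and 880.2, 845, 933, 1013 and 1071 CPM in control lung. In libraries labelled Etv5KO it stood at 17.4, 24.0, 32.0, 23.1 and 27.1 CPM in AT2 cells and 1011, 742, 816, 1001 and 893 CPM in lung. Every lung library was above every AT2 library, and in controls the log2 difference was -5.56 (SE 0.15, adjusted p = 3.31e-11). Cdh5 (12562), VE-cadherin, stood at 32.9, 22.1, 28.3 and 25.1 CPM in control AT2 cells and 1185, 1249, 1264, 1329 and 1349 CPM in control lung. In libraries labelled Etv5KO Cdh5 stood at 20.0, 31.8, 37.3, 32.8 and 34.5 CPM in AT2 cells and 1202, 964, 1077, 1312 and 1242 CPM in lung. Both genes remained in control AT2 cells at 2.12% of their mean control lung level. Of the pair, only Pecam1 encodes a protein used in the gate. Single control AT2 libraries ranged from 1.75% to 2.54% for Pecam1 and from 1.74% to 2.58% for Cdh5.

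**Figure D1:**
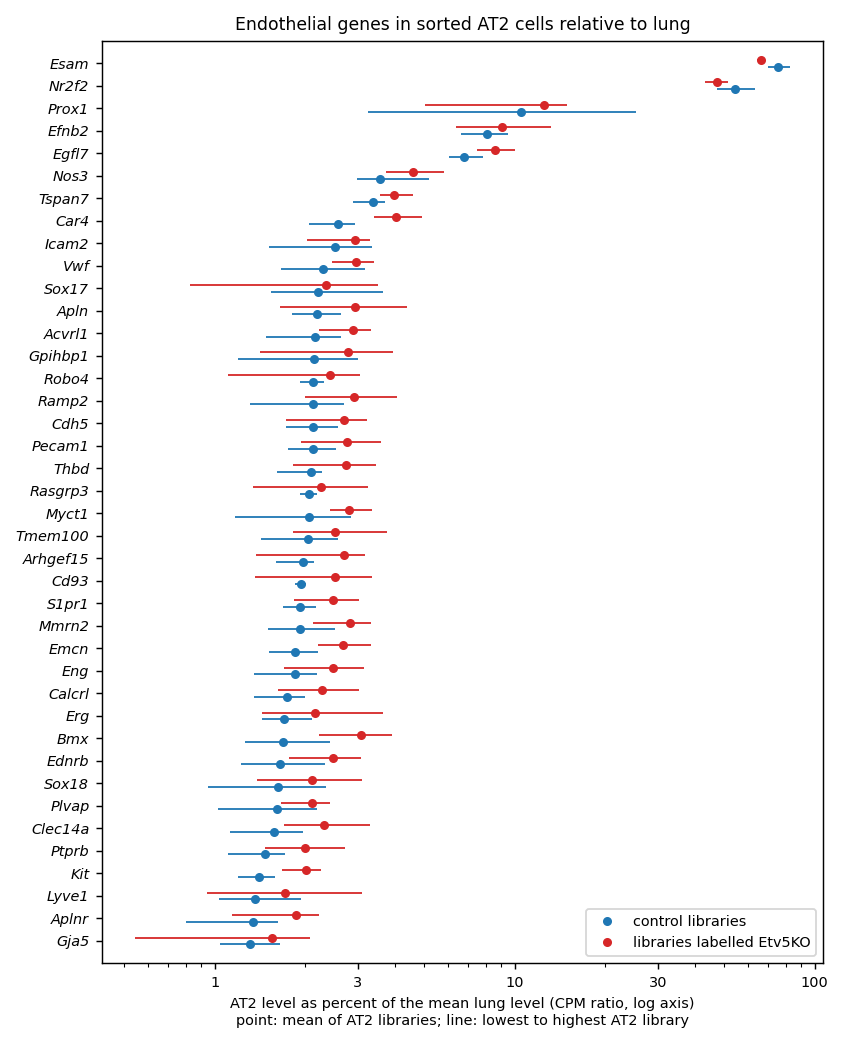
AT2 level of each of the 40 genes as a percentage of its mean lung level (horizontal log axis), in controls (blue) and in libraries labelled Etv5KO (red); points are means over AT2 libraries (n = 4 and 5) and lines run from the lowest to the highest AT2 library. In controls 33 genes lie between 1.31% and 2.58%, and Esam (75.7%) and Nr2f2 (54.4%) lie far to the right.

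Most of the 40 genes kept a like share of their lung level in AT2 cells, whatever their role. In controls 33 of them kept between 1.31% and 2.58% of the lung level, with a median over all 40 of 2.07%. The other 7 were Tspan7 (3.37%), Nos3 (3.56%), Egfl7 (6.75%), Efnb2 (8.07%), Prox1 (10.5%, or 5.54% without AT2_control 2), Nr2f2 (54.4%) and Esam (75.7%). By role, the medians were 2.12% for junction, adhesion and surface genes, 2.21% for transcription factors, 1.92% for receptors, ligands and signalling, 2.05% for BMP and TGF-beta receptors and 2.12% for blood, tone and transport. ERG and SOX family genes were among those with a small remainder: Sox17 kept 2.21%, and Erg and Sox18, like Eng and Acvrl1, the receptors of BMP9 signalling, lay inside the range of the 33. In libraries labelled Etv5KO 38 of the 40 percentages were higher than in controls, and Nr2f2 (47.1%) and Esam (66.2%) were the exceptions. The order was much the same in both genotypes (Spearman's rho 0.868 over 40 genes, a description, since the genes share libraries and depth), and the 6 highest percentages belonged to the same 6 genes.

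Esam (69524) kept the largest share of its lung level in AT2 cells of the 40 genes, 75.7% in controls and 66.2% in Etv5KO. It stood at 199, 196, 219 and 184 CPM in control AT2 cells and 255, 231, 277, 291 and 265 CPM in control lung. In libraries labelled Etv5KO it stood at 166, 167, 161, 167 and 167 CPM in AT2 cells and 256, 204, 253, 289 and 251 CPM in lung. The lung libraries were the higher ones without overlap, yet the log2 difference was only -0.40 in controls (95% interval -0.58 to -0.22, adjusted p = 0.000867) and -0.58 in Etv5KO (-0.75 to -0.41). For Nr2f2 (11819) the control AT2 libraries stood at 40.2, 50.4, 37.6 and 44.6 CPM and the control lung libraries at 84.6, 73.0, 81.1, 70.7 and 87.8 CPM. Nr2f2 in libraries labelled Etv5KO stood at 40.3, 44.4, 37.4, 42.2 and 39.8 CPM in AT2 cells and at 86.0, 83.1, 102, 63.1 and 98.4 CPM in lung. Lung was thus higher in every library by a log2 difference of about 1 (-0.88, SE 0.10, in controls).

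Egfl7 and Efnb2 fell between these 2 genes and the rest. Egfl7 (353156) stood at 21.4, 19.1, 24.7 and 19.7 CPM in control AT2 cells, 308, 281, 301, 340.1 and 342 in control lung, 25.1, 21.7, 24.0, 25.3 and 29.2 in AT2 cells labelled Etv5KO and 312, 215, 327, 345 and 254 in lung labelled Etv5KO. Lung was 14.8-fold above AT2 cells in controls and 11.6-fold in Etv5KO. Efnb2 (13642), the arterial ligand ephrin-B2, stood at 19.7, 26.8, 18.6 and 25.6 CPM in control AT2 cells, 273, 228, 325, 275 and 302 in control lung, 18.0, 29.4, 16.1, 17.7 and 33.4 in AT2 cells labelled Etv5KO and 266, 186, 248, 279 and 282 in lung labelled Etv5KO. Lung was higher by 12.4-fold and 11.0-fold.

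Prox1 and Nos3 had high percentages at low levels. Prox1 (19130) stood at 0.271, 0.924, 0.216 and 0.119 CPM in control AT2 cells and 4.97, 3.34, 3.79, 2.45 and 3.70 in control lung. In libraries labelled Etv5KO Prox1 stood at 0.459, 0.422, 0.423, 0.460 and 0.155 CPM in AT2 cells and 3.50, 2.42, 3.50, 2.54 and 3.38 in lung. Its percentage ran from 3.25% to 25.3% over single control AT2 libraries, the widest range of the named genes, and AT2_control 2 gave the upper end. Without that library Prox1 kept 5.54%, below Egfl7 and Efnb2 rather than above them, and no other of the 40 percentages moved by over 1.5 times when any single control library was left out. Nos3 (18127) stood at 0.976, 1.70, 0.995 and 1.01 CPM in control AT2 cells and 42.1, 28.0, 26.7, 26.4 and 41.0 in control lung, and at 1.25, 1.00, 1.56, 1.21 and 1.13 in AT2 cells and 28.7, 20.0, 29.0, 31.0 and 25.7 in lung labelled Etv5KO. AT2_control 2 was the highest control AT2 library for both Prox1 and Nos3.

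The 6 genes with the smallest remainder were Gja5 (1.31%), Aplnr (1.35%), Lyve1 (1.36%), Kit (1.40%), Ptprb (1.48%) and Clec14a (1.57%). Aplnr, the apelin receptor, Kit, a receptor tyrosine kinase, and Ptprb, the VE-PTP phosphatase, are enriched in general capillary cells. They belong to a list of 7 general capillary genes that kept 1.35% to 2.28% of control lung (median 1.61%). Also on that list were Plvap (1.61%), Cd93 (1.94%) and Gpihbp1 (2.15%), and the median of all 40 genes was 2.07%. Gja5, the connexin of arterial gap junctions (14613), stood at 0.922, 0.584, 0.649 and 0.771 CPM in control AT2 cells and 69.7, 55.5, 52.8, 51.7 and 49.6 in control lung, and at 1.12, 0.897, 0.296, 0.806 and 1.13 in AT2 cells and 37.8, 50.5, 71.3, 46.3 and 67.0 in lung labelled Etv5KO. Aplnr (23796) stood at 1.68, 2.04, 2.03 and 1.01 CPM in control AT2 cells and 144, 102, 106, 151 and 124 in control lung, and at 1.38, 2.69, 2.03, 2.53 and 2.63 in AT2 cells and 87.9, 116, 121, 152 and 127 in lung labelled Etv5KO. For both genes every lung library was far above every AT2 library.

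Kit (16590) was the steadiest of these 6 in control lung. It stood at 3.36, 4.23, 4.46 and 3.73 CPM in control AT2 cells and 262, 275, 309.7, 271 and 288 in control lung, and at 4.07, 5.43, 5.49, 4.26 and 5.11 in AT2 cells and 272, 180.2, 219, 267 and 271 in lung labelled Etv5KO. Ptprb (19263) and Lyve1, the hyaluronan receptor of lymphatic vessels and some macrophages (114332), varied most of the 6 between control lung libraries. Ptprb stood at 22.2, 14.4, 20.9 and 18.9 CPM in control AT2 cells and 694, 1369, 1859, 1269.5 and 1275 in control lung, and at 16.4, 18.0, 30.2, 20.5 and 25.9 in AT2 cells and 1226, 752, 837, 1257 and 1479 in lung labelled Etv5KO. Lyve1 stood at 5.59, 2.97, 3.46 and 3.62 CPM in control AT2 cells and 138, 159, 456, 300.2 and 380.4 in control lung, and at 2.49, 3.75, 8.20, 4.66 and 3.56 in AT2 cells and 367, 126, 224, 280.5 and 321 in lung labelled Etv5KO. The spread of Lyve1 within control lung (SD 138 on a mean of 287 CPM) was larger than the gap between the genotypes' means. Clec14a (66864), an endothelial C-type lectin, stood at 10.1, 5.74, 9.35 and 6.94 CPM in control AT2 cells and 369.6, 448, 649, 616 and 470.5 in control lung, and at 8.07, 8.28, 15.7, 10.6 and 12.3 in AT2 cells and 576, 369, 389, 516 and 521 in lung labelled Etv5KO.

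**Figure D2:**
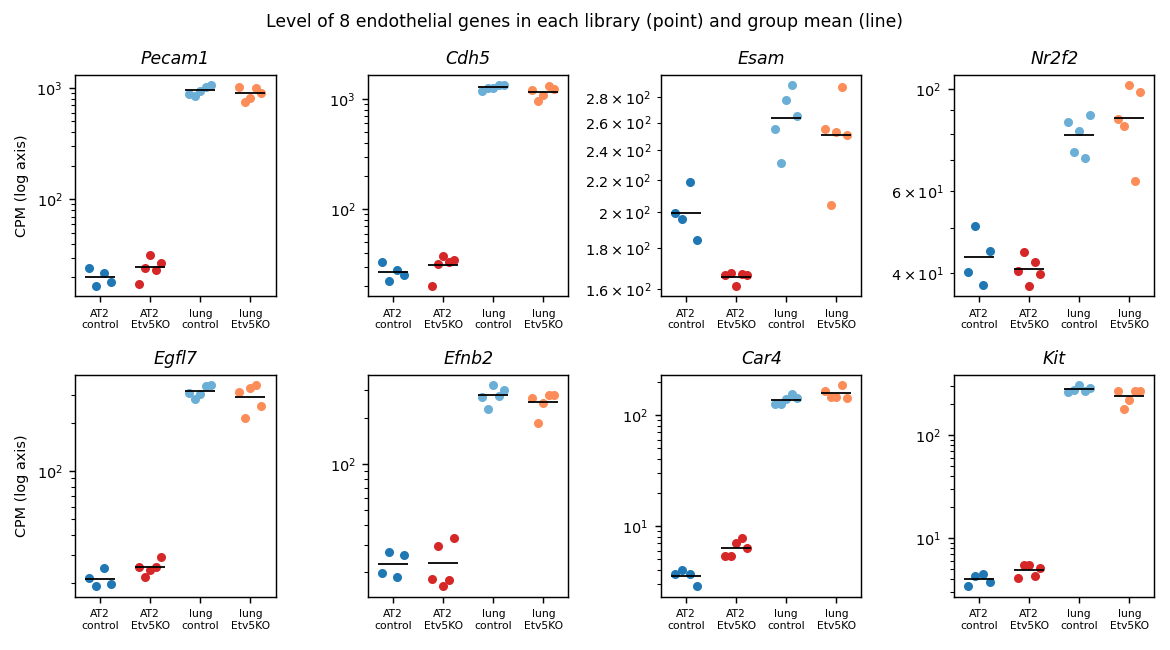
CPM of 8 of the genes in each library (points; vertical log axis, scaled separately for each gene) with group means (lines), for 4 control and 5 Etv5KO AT2 libraries and 5 control and 5 Etv5KO lung libraries. Within each genotype lung lies above AT2 cells for every gene, by the least for Esam and Nr2f2, and the AT2 libraries labelled Etv5KO lie below the controls for Esam and above them for Car4.

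A ratio to Cdh5 within the same library does not depend on how libraries are scaled. It does depend on Cdh5 itself, which kept 2.12% of its control lung level in control AT2 cells. A gene that kept a larger share than Cdh5 therefore tends to a higher ratio in AT2 cells. How many of all genes had a higher or lower ratio without overlap was not determined, so these counts describe the endothelial genes only. In controls 6 of the other 39 genes had a higher ratio to Cdh5 in every AT2 library than in any lung library: Esam, Egfl7, Prox1, Efnb2, Nr2f2 and Tspan7. For Prox1 the gap was narrow, from at most 0.419% in control lung to at least 0.473% in control AT2 cells. In both genotypes its AT2 ratio rests on very few reads, so its place among the 6 is not secure. Gja5 and Kit had a lower ratio in AT2 cells without overlap, and the other 31 overlapped. Esam had a median of 755% of the Cdh5 count in control AT2 cells and 21.5% in control lung, and Nr2f2 155% and 6.42%. In libraries labelled Etv5KO 8 genes were higher in AT2 cells without overlap, the same 6 with Car4 and Nos3, and 31 overlapped. No ratio to Cdh5 separated the genotypes without overlap, in AT2 cells or in lung.

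Most endothelial genes outside the 40 were low in AT2 cells too. Of 36 further ones, 35 passed the filter on low counts in the control comparison, Ccl21a being listed at 0 in all 19 libraries. Of the 35, 33 were lower in AT2 cells, where 38.9% of all 17118 genes tested were lower. Icam1, 1 of the 35, was higher, where 6092 of all 17118 genes were. Some of the 35 failed the filter on low counts among AT2 libraries and entered through their lung level. For those, being lower is a description and not a test result. Cav1, the coat protein of caveolae, kept 3.16% and Aqp1, a water channel, 2.93% of the control lung level, and 25 of the 35 kept under 3%. Icam1, an adhesion receptor that epithelial cells also make, stood at 160% of lung (749.99 against 469 CPM), and Klf4, singled out after its values were seen, at 118% without passing the test in controls (adjusted p = 0.229). Most markers of cell types outside the alveolar epithelium were also low in control AT2 cells. The 6 markers of alveolar type I (AT1) cells were less so, at 8.43% to 261% of lung with a median of 10.1%. The 7 fibroblast markers kept 0.926% to 4.27% of lung, the 7 pericyte and smooth muscle markers 1.11% to 3.67%, the 6 lymphocyte markers 2.12% to 3.82%, the 3 mesothelial markers 3.65% to 5.43% and the 6 macrophage markers 2.86% to 30.3%. The 5 platelet markers kept more, 1.08% to 31.7% with a median of 16.4%, and 4 of them were over 3%. No marker of these 6 lists from outside the alveolar epithelium was at 0 in a whole group. Their part in the remainder of endothelial reads was not tested.

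In AT2 cells, libraries labelled Etv5KO differed from controls in 2 of the 40 genes: Car4 rose and Esam fell. Car4, carbonic anhydrase 4, is a membrane enzyme of carbon dioxide exchange and a marker of aerocytes. Of the 40 genes 38 passed the filter on low counts (not Bmx and Prox1). By edgeR 1 of the 38 rose, where 5.03% of all 14939 genes tested rose, and 1 fell, where 4.84% fell, so in neither direction did the share of the 38 exceed that over all genes. The groups did not overlap for 1 gene in each direction, where 5.9% of all genes were higher and 6.49% lower without overlap.

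Car4 (12351) stood at 3.69, 4.04, 3.68 and 2.85 CPM in control AT2 cells and 5.38, 5.38, 7.02, 7.77 and 6.29 CPM in AT2 cells labelled Etv5KO. Every library labelled Etv5KO was above every control, with a log2 fold change of 0.84 (SE 0.16, 95% interval 0.49 to 1.19) and an adjusted p of 0.00585 by edgeR. Its level was low throughout, at 48 to 85 counts per control AT2 library and 2.58% of control lung. In lung Car4 stood at 126, 126, 140.1, 156 and 141 CPM in controls and 167, 146, 147, 187 and 144 CPM in libraries labelled Etv5KO, overlapping groups with a log2 fold change of 0.19 (95% interval -0.0049 to 0.39, adjusted p = 0.913). It passed in AT2 cells under all 16 alternative settings (adjusted p up to 0.0247). Relative to Cdh5, the Car4 counts of the AT2 libraries overlapped between genotypes (11.2% to 18.2% in controls and 16.9% to 26.9% in Etv5KO).

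Esam fell from 199.7 ± 14.4 CPM (SD, n = 4) to 166 ± 2.57 CPM (n = 5), every library labelled Etv5KO being below every control. By edgeR this was a log2 fold change of -0.26 (95% interval -0.39 to -0.13, adjusted p = 0.0168). The call was lost with library-size scaling (adjusted p = 0.0954), against a fold change of 1.2 and without AT2_control 3 (0.0619).

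**Figure D3:**
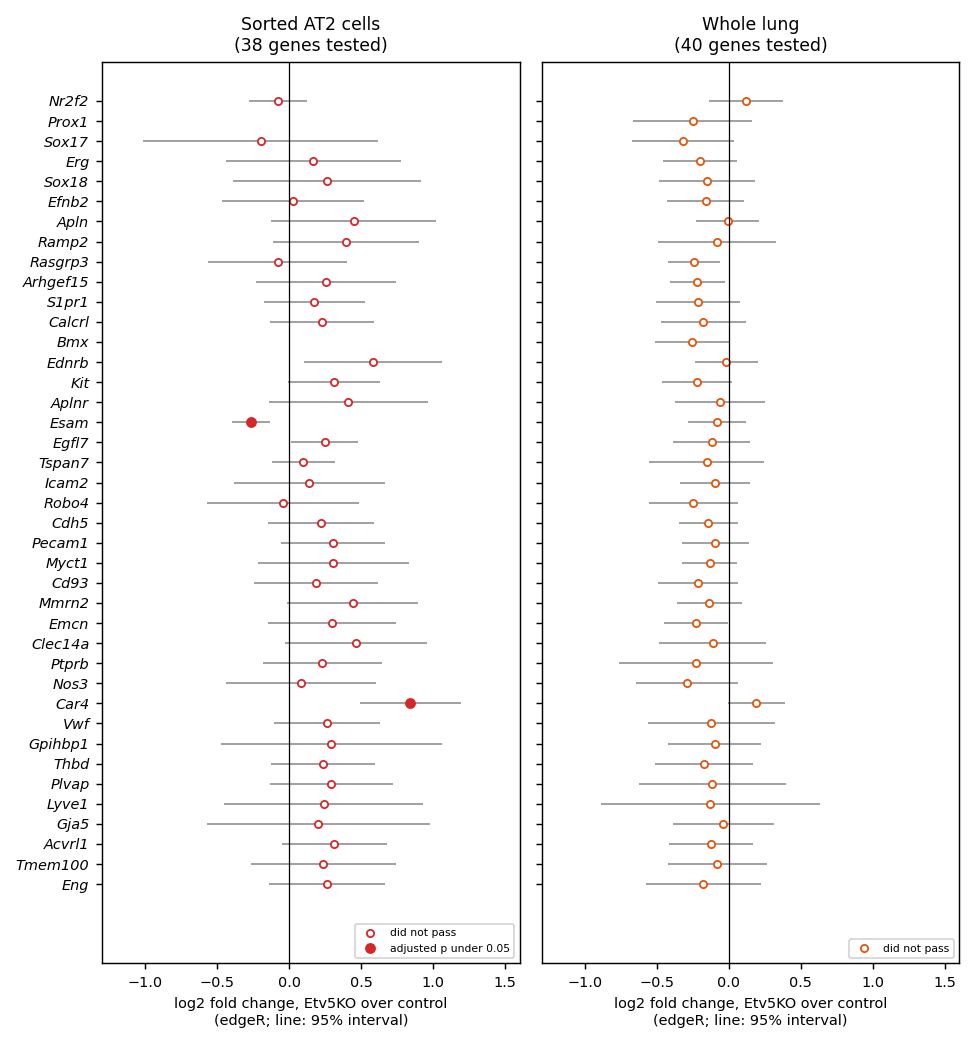
Log2 fold changes of libraries labelled Etv5KO over controls with 95% intervals (edgeR), for 38 of the genes in AT2 cells (left) and all 40 in lung (right), in order of role; filled points have an adjusted p under 0.05. In AT2 cells only Car4 (0.84) and Esam (-0.26) are filled and most other points lie to the right of 0, and in lung no point is filled and 38 of 40 lie to the left of 0.

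The other 36 genes tested in AT2 cells did not pass. Their estimates leaned one way: 33 of all 38 were above 0, where 48.8% of all genes were, and the median was 0.24 (all genes -0.01). Pecam1 had a log2 fold change of 0.30 (95% interval -0.06 to 0.67, adjusted p = 0.315) and Cdh5 of 0.22 (-0.15 to 0.59, adjusted p = 0.509). Ednrb, the endothelin receptor B and another aerocyte marker, had 0.58 (0.11 to 1.06, adjusted p = 0.132), passing only without AT2_control 1 (adjusted p = 0.0457). The median was 0.14 without AT2_control 2, the library with the most low values, and 0.34 without AT2_Etv5KO 1, which was lowest for 10 genes. Of the 38 intervals 34 included 0, and the median upper bound was 0.67.

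In the same libraries the 10 defining endothelial markers, 7 of them among the 40 genes, summed to 76.5 to 114 CPM in controls and 78.9 to 137 in Etv5KO; none was at 0 and none passed. Genes on the lists of other cell types changed as well. The 3 mesothelial markers summed to 7.17 to 12.9 CPM in controls and 13.6 to 21.6 in Etv5KO (1 of 2 tested rose), and the 6 AT1 markers, of the thin alveolar epithelium, to 805 to 931 and 909 to 1027 CPM (2 rose and 1 fell). The 7 fibroblast markers summed to 41.0 to 68.9 and 48.9 to 92.8 CPM (none of 6 tested passed), and the 5 platelet markers to 4.74 to 7.64 and 3.38 to 4.33 CPM (1 of 3 tested fell). The 6 macrophage markers summed to 34.0 to 58.1 and 45.6 to 52.2 CPM (1 rose), and of the 7 AT2 markers 2 fell. The 4 general epithelial markers summed to 1609 to 1776 CPM in controls and 1885 to 2128 in Etv5KO without overlap, and 1 of the 4 rose. Their part in the Car4 and Esam results was not tested.

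Grouped by vessel type, with partly overlapping lists, the AT2 estimates differed in their medians. The 7 aerocyte genes had a median log2 fold change of 0.45 with all 7 above 0 and 1 rising (Car4), and the 7 general capillary genes 0.29 with all 7 above 0 and none passing. The 6 arterial genes had a median of 0.02 (5 tested), the 5 venous genes 0.38 (4 tested) and the 6 lymphatic genes 0.24 (3 tested), with none passing. Of the 36 further endothelial genes 31 were tested, and Cav1 (log2 fold change 0.32, adjusted p = 0.0285) and Ly6c1 (0.37, adjusted p = 0.0452), named after their values were seen, rose. These were 2 of 31, where 5.03% of all genes rose, and the difference between the shares was not tested. The cell type in which Cav1 and Ly6c1 rose was not tested either.

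In lung none of the 40 genes passed, where 0.415% of all 17098 genes tested passed in either direction, and none separated the groups without overlap (1.52% of all genes). DESeq2 and limma-voom also called none. At an unadjusted p under 0.05 edgeR had 3 lower and 0 higher, DESeq2 4 lower and 1 higher, and limma-voom 4 lower and 0 higher. Of all 17098 genes, 944 (edgeR), 968 (DESeq2) and 917 (limma-voom) were under it, in either direction. Leaving out single libraries gave edgeR 2 to 6 lower, with 6 lower and 1 higher without lung_Etv5KO 4 and 2 lower without lung_control 1, lung_control 5, lung_Etv5KO 1, lung_Etv5KO 2 or lung_Etv5KO 3. Over all genes these runs had 723 to 1672 under it, and 1381 of 17276 without lung_Etv5KO 4. The 3 lower by edgeR with all libraries were Emcn, endomucin, with a log2 fold change of -0.23 (adjusted p = 0.879), and the signalling genes Arhgef15 (-0.22, adjusted p = 0.763) and Rasgrp3 (-0.24, adjusted p = 0.531). The estimates leaned down: 38 of 40 were below 0, where 54.0% of all genes were, with a median of -0.14 (all genes -0.01). Without lung_Etv5KO 2 the median was -0.06 and 30 of 40 were below 0. Car4 (0.19) and Nr2f2 (0.12) were the 2 estimates above 0. All estimates lay between -0.32 and 0.19, and 37 of the 40 intervals included 0.

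By vessel type the lung medians were -0.01 for aerocyte genes, -0.12 for general capillary, -0.18 for arterial, 0.11 for venous and -0.16 for lymphatic genes, and no gene of these lists passed. The summed level of the 40 genes was 12683 to 17323 CPM in control lung and 10623 to 15812 CPM in lung labelled Etv5KO, with lung_Etv5KO 2 the lowest. In the same lung libraries the 7 fibroblast markers summed to 1789 to 3863 CPM in controls and 1747 to 3933 in Etv5KO, and the 3 mesothelial markers to 157.5 to 250.2 and 122.9 to 292 CPM; none of these 10 genes passed. Of the 6 macrophage markers 1 fell (Marco, log2 fold change -1.29, adjusted p = 0.0167), and of the 7 AT2 markers 1 fell (Sftpa1, -0.78, adjusted p = 0.0305), both named after their values were seen. Their part in the lung estimates was not tested.

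**Figure D4:**
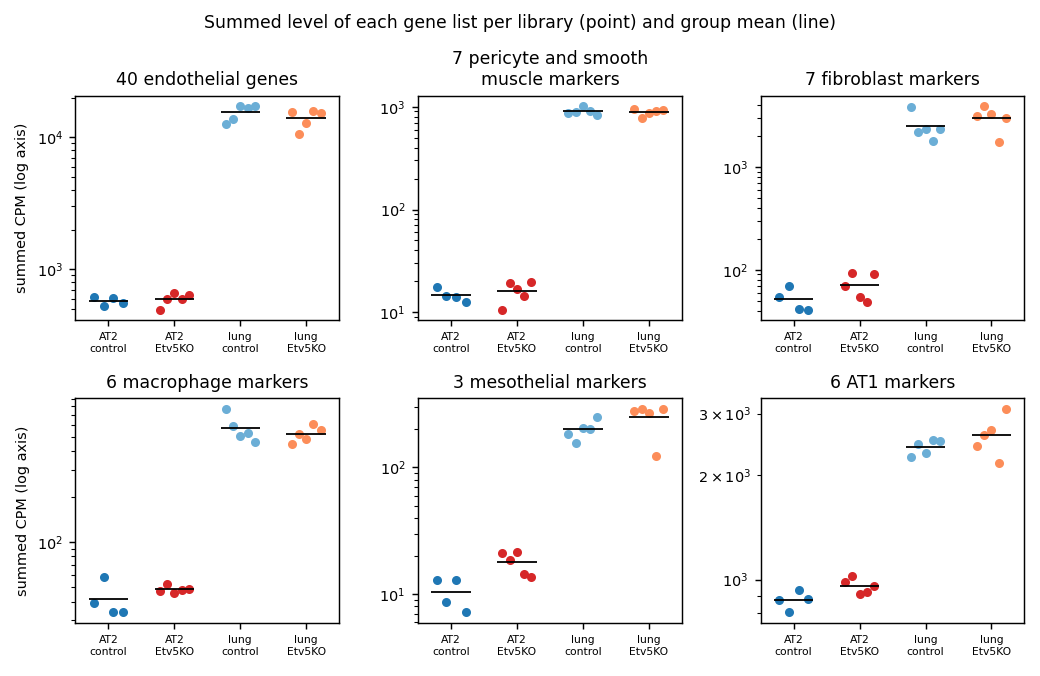
Summed CPM per library (points; vertical log axes) and group mean (lines) of the 40 endothelial genes and of 5 marker lists of other cell types. The 40 genes sum to 495 to 657 CPM in the 9 AT2 libraries and 10623 to 17323 CPM in the 10 lung libraries, and the mesothelial markers are the list shown whose AT2 libraries do not overlap between genotypes.

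The difference between the Etv5KO effects in AT2 cells and in lung was tested as an interaction over all 19 libraries, and 0 of the 40 genes passed by edgeR, where 1.59% of all 17698 genes passed. At an unadjusted p under 0.05 there were 8 higher in AT2 cells and 0 lower (Car4, Emcn, Egfl7, Mmrn2, Ednrb, Bmx, Kit and Arhgef15). Over all genes 1765 of 17698 were under it, in either direction. Bmx, at 3 to 7 counts per control AT2 library, and Prox1 failed the filter on low counts among AT2 libraries. Both entered this fit through their lung level, so their values here are descriptions only. The count of 8 was 20 without AT2_Etv5KO 1, 14 without AT2_control 1, 5 without AT2_Etv5KO 4, AT2_Etv5KO 5 or lung_Etv5KO 2, 15 with library-size scaling and 3 with limma-voom. In these runs 1626 to 1830 of all genes tested were under the same unadjusted p, in either direction. DESeq2 called 1, Car4 (adjusted p = 0.0153), and limma-voom 0. By edgeR Car4 had a difference of 0.64 (SE 0.17, 95% interval 0.29 to 0.98, adjusted p = 0.0606) and Kit 0.52 (SE 0.18, adjusted p = 0.213). The Car4 difference passed with library-size scaling and without AT2_control 2, AT2_Etv5KO 1, AT2_Etv5KO 2 or lung_Etv5KO 4 (adjusted p 0.0238 to 0.0469), and Arhgef15 passed without AT2_Etv5KO 1 (0.0259). For Esam the difference was -0.19 (-0.43 to 0.04, adjusted p = 0.655). The median over the 40 genes, Bmx and Prox1 included, was 0.39 (all genes -0.01), with 38 above 0. It was 0.33 without AT2_control 2 and 0.31 without lung_Etv5KO 2.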

How the data were processed

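RNA was sequenced in 19 mouse libraries. The deposited count gives, per the file headers, uniquely aligned reads per gene, and the authors also deposited an RPKM value divided by a size factor per sample. Genome build mm9 and GSNAP are named in the submitters' processing notes. The sources used here give neither the annotation nor the strand setting of the counting, so reads of overlapping genes cannot be told apart. Of 36528 Entrez IDs, 31049 (98.7% of counts) were named from RefSeq, GRCm38.p6. The members, roles and lists were chosen with earlier results of these data known.

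Counts were tested with edgeR 4.0.16 in R 4.3.3 (quasi-likelihood F test, filterByExpr with minimum count 10 and minimum total 15, TMM), two-sided, with Benjamini-Hochberg adjustment over all genes tested and a threshold of 0.05. Each comparison was fitted on its own groups and the interaction on all 19 libraries. A gene rose or fell only if it passed. limma 3.58.1 (voom) and DESeq2 1.42.0 were alternatives, beside other scalings, no filter, a fold threshold and leaving out each library. The fits of control AT2 cells against lung and of the genotypes within each tissue were tested on simulated data. The simulated counts used a common spread for all genes and no outlying library, so they do not bear on the calls of single genes reported here. Intervals are at 95%.

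Values per library are printed for Pecam1, Cdh5, members past the threshold by genotype, and the 6 highest and 6 lowest AT2-to-lung percentages in controls. From other lists, up to 3 genes by mean level may be named. The design names 5 mice per genotype, but the labels do not say that libraries of a group came from separate mice. The p-values set a difference against the spread between these libraries. No libraries were duplicates (chi-square per degree of freedom 9.21 to 75.0). The fifth control AT2 library of the design was not analysed here.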

Additional observations from a re-analysis of the deposited data

Results flagged for a closer look

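Among 64 gene and group combinations, 3 had a library far from the others by Dixon's criterion, and chance gives about 1 in 20. Esam stood at 161 CPM in AT2_Etv5KO 3, below the other 4 libraries of that group (166 to 167 CPM), a gap that is small against its level. Prox1 stood at 0.155 CPM in AT2_Etv5KO 5, below 0.422 to 0.460 CPM in the other 4. Nos3 stood at 1.70 CPM in AT2_control 2, above 0.976 to 1.01 CPM in the other 3.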

How the results depend on the processing

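In the comparisons of AT2 cells with lung, all 40 genes stayed lower under every alternative run, Bmx and Prox1 as a description only. In AT2 cells, leaving out each library in turn gave 1 to 2 genes higher and 0 to 1 lower, and library-size scaling and the fold threshold of 1.2 gave 0 lower. For the interaction, library-size scaling and DESeq2 gave 1 gene higher each, and leaving out each library gave 0 to 2. The median percentage of lung in control AT2 cells was 2.07% as reported, 1.56% with library-size scaling and 1.93% to 2.11% without single libraries. The summed CPM was 488 with library-size scaling and 375 without Esam in control AT2 cells (575 as reported), and 531 and 429.5 in AT2 cells labelled Etv5KO (595 as reported). Of the values for single genes that were followed through the alternatives (the named genes against lung, and 6 or 7 genes in each comparison of genotypes), 850 kept their call, 7 passed only under the alternative and 3 lost it, with no change of sign; outside them Arhgef15 passed for the interaction without AT2_Etv5KO 1. The percentage of Prox1 without AT2_control 2 was examined after the data were seen. No paired analysis was possible because the labels carry no replicate numbers and do not tie AT2 to lung libraries by mouse. Depth limits Bmx and Prox1, which had too few reads in AT2 cells for the genotype test.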
